A study of Homo sapiens with 3 samples.

Results

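The replication-dependent histone genes of the human genome lie in 3 clusters, and the chromatin immunoprecipitation and sequencing (ChIP-seq) peaks in and around these clusters are described here. Peaks were taken by the position of their midpoint in the genome build hg19: on chromosome 6 from 26000001 to 28000000 (HIST1), on chromosome 1 from 149700001 to 149950000 (HIST2) and on chromosome 1 from 228600001 to 228680000 (HIST3). Of 14365 codanin-1 peaks 30 met this rule, and of 5164 GATA1 peaks 2 did. HIST1 held 23 codanin-1 peaks and 2 GATA1 peaks, HIST2 held 4 and 0, and HIST3 held 3 and 0. All libraries came from K562 cells, an established human erythroleukaemia line grown without further treatment as far as the labels say, and were fixed for 10 minutes in 1% formaldehyde. One library was made per antibody: Cod1, raised against residues 123 to 142 near the amino end of codanin-1, an antibody against the transcription factor GATA1, and non-specific rabbit IgG, for which no peak list was analysed here. No value below therefore has a replicate error. The lists carry no gene names, so the labelled cell line was not checked against marker genes.

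Replication-dependent histone genes encode the core histones H2A, H2B, H3 and H4 and the linker histone H1 that package newly made DNA, and they are transcribed mainly in S phase. They have no introns as a rule, end in a stem-loop in place of a poly(A) tail, and are transcribed and processed at a nuclear body, the histone locus body. Codanin-1, the product of CDAN1, binds the histone chaperone ASF1, which carries newly made H3 and H4 to the assembly factors. Mutations in CDAN1 cause congenital dyserythropoietic anaemia type I, in which erythroblasts show abnormal heterochromatin. The comparison asks whether codanin-1 peaks crowd at the histone gene clusters. These hold H1, H2A and H2B genes beside those of H3 and H4, and peaks were not counted by histone class. GATA1, the main erythroid transcription factor, serves as the other protein measured in the same cells.

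The gene order in RefSeq's table for GRCh38.p14 places 53 protein-coding histone genes in HIST1, 11 in HIST2 and 3 in HIST3. In HIST1 they form 3 blocks, from H1-1 to H4C8 (32 genes), from H2BC11 to H2AC12 (5 genes) and from H2BC13 to H2BC17 (16 genes), with butyrophilin, transfer RNA (tRNA), zinc-finger and other genes between them. HIST1 alone holds H1 genes, 6 of them, beside 11 H2A, 14 H2B, 10 H3 and 12 H4 genes. The testis pair H2AC1 and H2BC1 lies before H1-1, outside the interval. The table is of another build than the peaks, so single peaks are not tied to genes. The blocks below are 100 kb bins set from recalled hg19 positions of these genes, which were not checked against an annotation. RefSeq promoter sequences of GRCh38.p14 were found for 62 of the 67 genes, with 66 entries because some genes have more than 1 start. To show what the genes of the clusters share in sequence, the 250 bases before the start are printed, 5′ to 3′ on the strand of the gene, for the first H1, H2B and H4 gene of HIST1 with an entry. Capitals mark, on either strand, CCAAT (the CCAAT box), TATAAA (the TATA box), GATAA (the core of a GATA site), AAACACA (the H1 box) and ATTTGCAT (the octamer of H2B promoters).
H1-1, chr6:26017788-26018037, minus strand: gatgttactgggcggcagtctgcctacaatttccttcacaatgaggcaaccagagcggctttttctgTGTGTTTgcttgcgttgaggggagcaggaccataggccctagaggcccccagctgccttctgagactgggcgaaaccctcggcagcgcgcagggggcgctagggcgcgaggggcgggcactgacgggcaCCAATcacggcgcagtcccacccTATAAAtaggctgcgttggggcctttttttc
H2BC3, chr6:26043714-26043963, minus strand: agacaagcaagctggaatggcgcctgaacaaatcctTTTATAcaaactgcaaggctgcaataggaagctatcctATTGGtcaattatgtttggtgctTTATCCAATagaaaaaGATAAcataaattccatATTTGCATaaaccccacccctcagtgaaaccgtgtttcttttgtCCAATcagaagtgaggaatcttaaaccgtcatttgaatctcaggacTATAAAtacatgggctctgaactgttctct
H4C2, chr6:26027284-26027533, minus strand: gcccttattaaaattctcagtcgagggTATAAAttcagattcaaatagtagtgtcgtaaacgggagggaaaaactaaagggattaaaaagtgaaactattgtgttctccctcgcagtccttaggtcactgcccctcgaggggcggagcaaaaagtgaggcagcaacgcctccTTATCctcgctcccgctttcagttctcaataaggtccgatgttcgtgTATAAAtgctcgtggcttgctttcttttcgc

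The histone promoters shared short elements, in part by histone class. CCAAT was present in 57 of 66 histone promoters (86.4%), against 32.0% of all 35116 promoters of the table cut to the same 250 bases. H4 promoters were the exception, with CCAAT in 3 of 12 entries. TATAAA was present in 43 (65.2%, against 10.7%). The H1 box stood in 6 of 6 H1 promoters and in 0 of the H2A, H2B, H3 and H4 promoters, against 4.82% of all promoters. The octamer stood in 14 of 19 H2B entries and 10 of 15 H2A entries, against 1.63% of all promoters. H2A and H2B genes often lie head to head and then share 1 promoter, so these entries are not independent. GATAA was present in 11 of 66 histone promoters (16.7%), against 20.4% of all. In the H2BC3 sequence 1 GATAA match overlaps a CCAAT match. A match is a description of letters and not a binding site, and these windows cannot be placed under the peaks because the builds differ.

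No difference in codanin-1 peak density between HIST1 and the sum of both flanks was detected. HIST1 held 23 peaks in 2 Mb, or 1.15 per 100 kb (95% exact Poisson interval 0.729 to 1.73), and the 2 Mb on either side together held 47, or 1.175 per 100 kb. The ratio of the densities was 0.98 (95% exact interval 0.57 to 1.64), which spans 1. All intervals cover counting error only, and neighbouring peaks are not independent. The flanks were unequal. The lower flank held 10 codanin-1 peaks (0.50 per 100 kb) and the upper flank, which runs toward the major histocompatibility complex, held 37 (1.85 per 100 kb). HIST1 thus lay between its neighbours, at 2.30 times the lower flank and 0.62 times the upper flank. The ratio turned above 1 with flanks of 1 Mb (1.44) and fell to 0.18 among peaks with a −log10 q of 2 or more, where HIST1 held 1 peak and its flanks 11.

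HIST1 and its upper flank held more codanin-1 peaks per 100 kb than the genome, whose mean was 0.465 over all chromosomes and 0.630 over chromosome 6. The lower flank, at 0.50, was near these means. Of 1504 other windows of 2 Mb, 176 (11.7%) held at least 23 codanin-1 peaks, and the median window held 3. Measured against its own flanks, however, HIST1 was ordinary: 43.4% of the 934 windows with at least 5 flank peaks had a ratio at least as high. Assembly gaps were not left out of these windows, and gene density and copy number were not accounted for, so their part in the regional level was not tested.

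**Figure D1:**
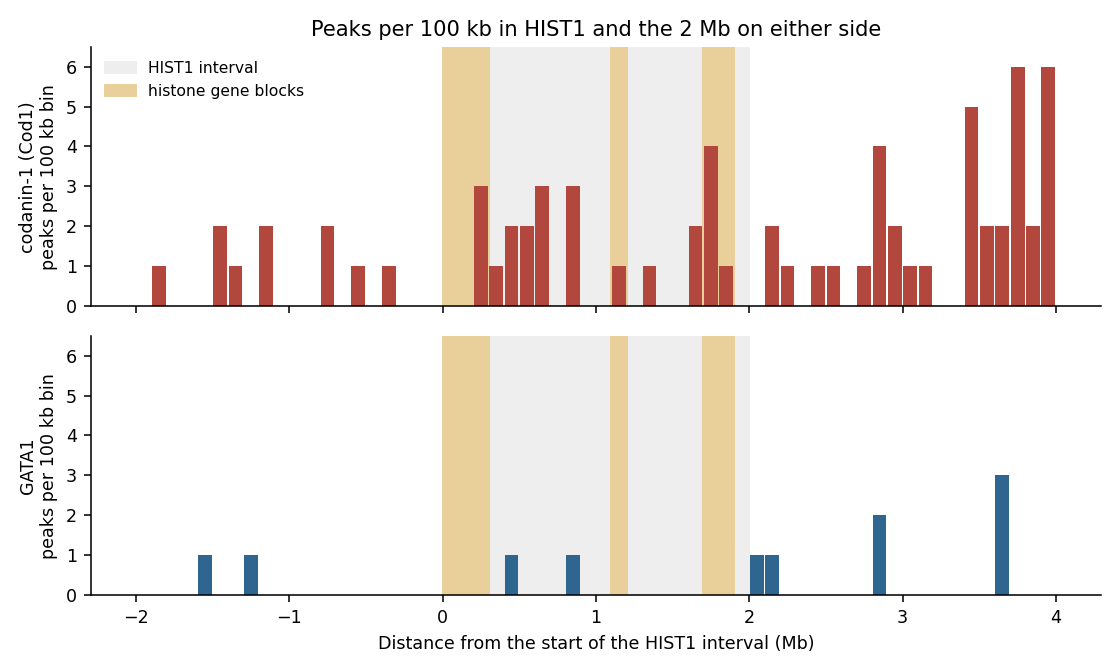
Number of peaks in each 100 kb bin (y axis) by distance from the start of HIST1 in Mb (x axis), codanin-1 above and GATA1 below; grey marks HIST1 and tan its histone gene blocks. Codanin-1 bins in HIST1 reach 4 peaks, those of the upper flank reach 6, and GATA1 bins in HIST1 hold at most 1.

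Peaks were spread over HIST1 and not piled up at 1 site. Of its 20 bins of 100 kb, 11 held at least 1 codanin-1 peak, against 23.9% of all bins in the genome. The lower flank had 7 such bins of 20 and the upper flank 15 of 20, so the share in HIST1 again fell between those of its neighbours. The mean per bin was 1.15 ± 1.31 (SD over 20 bins) in HIST1, 0.50 ± 0.761 in the lower flank and 1.85 ± 1.93 in the upper flank. The longest stretch of HIST1 between 2 codanin-1 peaks, 283.5 kb, ran from 27356473 to 27639955, between the blocks H2BC11 to H2AC12 and H2BC13 to H2BC17. Only 5 of 22 gaps between neighbouring peaks were under 10 kb, and the median gap was 47.3 kb.

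Within HIST1 the histone gene blocks held 9 codanin-1 peaks in 600 kb (1.5 per 100 kb), and the remaining 1400 kb held 14 (1.00 per 100 kb). The ratio was 1.5 (95% exact interval 0.57 to 3.72), a difference within counting error. The blocks make up 30.0% of HIST1 and held 39.1% of its codanin-1 peaks. By block the numbers were 3 peaks in 300 kb for H1-1 to H4C8, 1 peak in 100 kb for H2BC11 to H2AC12 and 5 peaks in 200 kb for H2BC13 to H2BC17. The last of these had the highest density, 2.5 per 100 kb, and the stretch of butyrophilin, tRNA and zinc-finger genes between the first and second blocks came next, with 11 peaks in 800 kb (1.38 per 100 kb). The stretch from PRSS16 to ZNF184 held 3 peaks in 500 kb, and the last 100 kb of HIST1 held 0. All 3 peaks of the first block lay in its last 100 kb bin. The 2 bins before it, where H1-1 and the first core histone genes lie by their recalled positions, had 0.

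The 5 codanin-1 peaks of HIST1 with the highest fold enrichment over the background of the peak caller lay mostly in the histone gene blocks. The highest, on chromosome 6 at 26659833 to 26660261, had a fold of 4.30 and lay outside the histone gene blocks. It was also the only one of the 23 with a −log10 q of 2 or more (2.13). The next, at 27125108 to 27125226 in the block H2BC11 to H2AC12, had a fold of 4.08. A peak at 27845763 to 27846078 in the block H2BC13 to H2BC17 had a fold of 4.04. The remaining ones, at 26204815 to 26205203 (4.04-fold) and 26260384 to 26260808 (4.00-fold), lay in the block H1-1 to H4C8. So 4 of the 5 were in the histone gene blocks, where 9 of all 23 peaks lay. The widest peak of HIST1, 536 bp at 26250357 to 26250892, stood between the last pair, with a fold of 3.91. The next widest were 469 bp at 26850602 to 26851070 (3.50-fold) and 459 bp at 27690206 to 27690664 (3.51-fold), both outside the blocks. The other 15 peaks had folds from 3.26 to 3.98 and widths from 101 to 431 bp.

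Peaks in the histone gene blocks had a median fold enrichment of 3.98 (3.41 to 4.08, 9 peaks), and 5 of the 9 were above the median of the whole codanin-1 list. The 14 other peaks of HIST1 had a median of 3.64 (3.26 to 4.30), with 2 above the list's median. The ranges overlap, and peaks of 1 library are not replicates, so this is a description with no test. A pair of tight runs, chosen after their values were seen, stood out by spacing. In the block H2BC13 to H2BC17, 3 peaks lay within 15.8 kb, at 27783606 to 27783706, 27791784 to 27791962 and 27799247 to 27799432, with folds of 3.85, 3.41 and 3.51. Outside the blocks, 3 peaks lay within 7.52 kb from 26848110 to 26855632, with folds from 3.50 to 3.85.

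**Figure D2:**
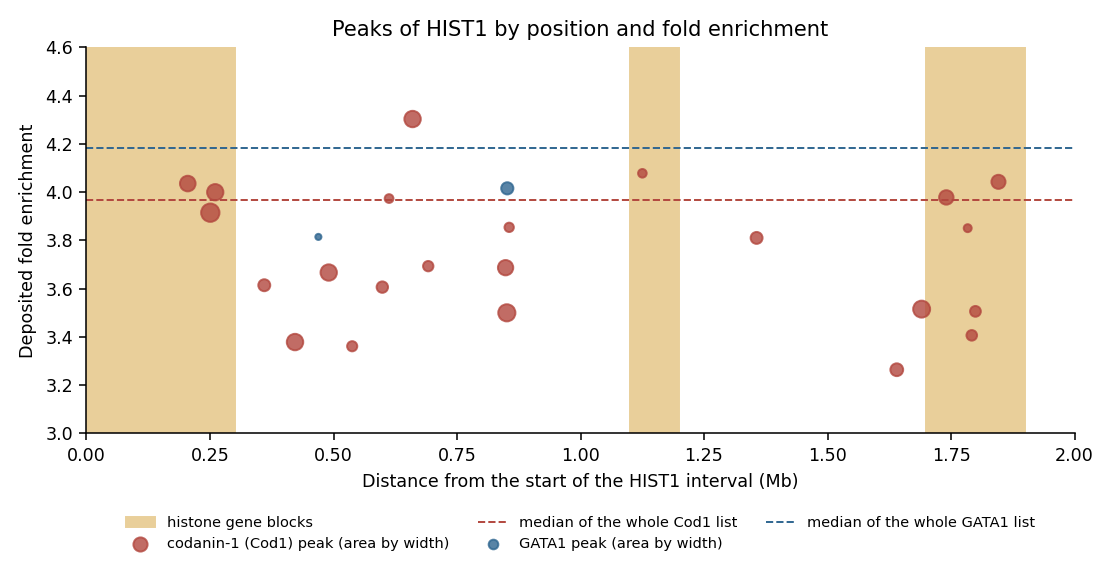
Deposited fold enrichment (y axis) of each HIST1 peak by distance from the start of HIST1 in Mb (x axis), with point area by peak width, tan histone gene blocks and dashed medians of the whole lists. Most codanin-1 points, 16 of 23, sit below the codanin-1 median of 3.97, and both GATA1 points sit below the GATA1 median of 4.18 and outside the blocks.

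The codanin-1 peaks of HIST1 had a lower median fold enrichment than those of the flanks, a description with no test. The median was 3.69 (interquartile range 3.51 to 3.98), against 4.04 (3.81 to 4.33) for the 47 peaks of the flanks and 3.97 (3.79 to 4.29) for the whole list. The difference of medians to the flanks was -0.13 on the log2 scale. A fold above the list's median was reached by 7 of 23 in HIST1 and by 27 of 47 in the flanks. Only 1 of 23 had a −log10 q of 2 or more, against 11 of 47 in the flanks and 22.9% of the whole list. A fold of 5 or more was seen in 0 of 23, against 5 of 47 in the flanks and 4.78% of the list. The strongest flank peak, on chromosome 6 at 28864110 to 28864222, had a fold of 5.65. Width ran the other way: the median was 261 bp in HIST1, 212 bp in the flanks and 220 bp in the list. The first codanin-1 peak inside HIST1 lay 205.0 kb from its lower edge with a fold of 4.04 and the last outside lay 380.3 kb before it with 4.16. The last peak inside lay 154.1 kb from the upper edge with a fold of 4.04. The first outside lay 155.9 kb beyond that edge with 3.64.

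**Figure D3:**
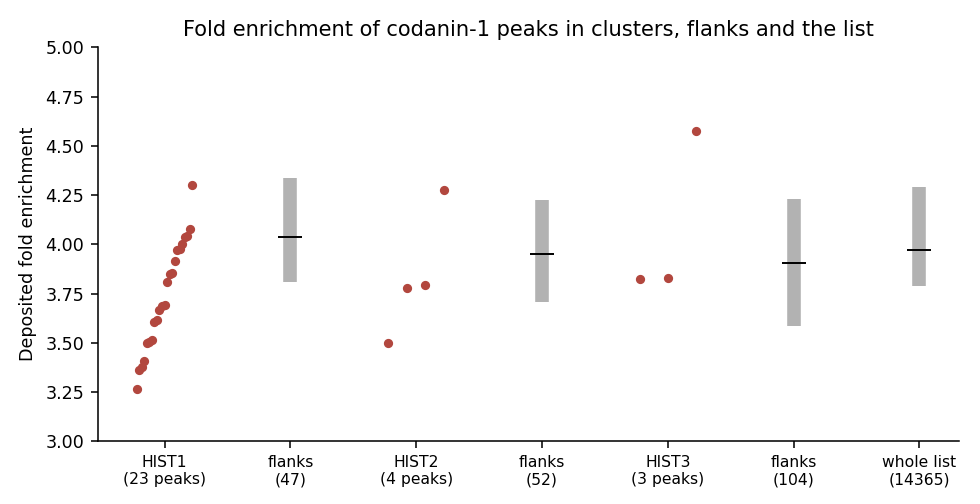
Deposited fold enrichment (y axis) of codanin-1 peaks, with each cluster peak as a point, and flanks and the whole list as a median (dash) with interquartile range (bar). The HIST1 median of 3.69 lies below the lower quartile of its flanks, 3.81, and no cluster peak reaches a fold of 5.

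HIST1 held 2 GATA1 peaks (0.10 per 100 kb) and the flanks held 9 (0.225 per 100 kb), a ratio of 0.44 (95% exact interval 0.05 to 2.15). The mean of the GATA1 list was 0.167 per 100 kb over all chromosomes and 0.123 over chromosome 6. Of 20 bins 2 held a GATA1 peak, against 7.35% of all bins. Of 1504 other windows of 2 Mb, 28.1% held at least 2 GATA1 peaks and 55.1% held none. One GATA1 peak was at 26469358 to 26469417, with a fold of 3.81, and the other at 26851637 to 26851873, with a fold of 4.02. Both lay between the first and second histone gene blocks. The histone gene blocks held 0 GATA1 peaks in 600 kb, a count that allows up to 0.50 per 100 kb. A deficit against the 0.143 per 100 kb of the rest of HIST1 was therefore not detectable. Codanin-1 made up 92.0% of the 25 peaks of both lists in HIST1 (95% exact interval 74.0 to 99.0), 83.9% of the 56 in the flanks (71.7 to 92.4) and 73.6% of all peaks. The intervals of HIST1 and its flanks overlap. Read depth is not known for either library, and these shares rank neither protein by binding.

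The proteins had no shared site in the clusters. Of 23 codanin-1 peaks in HIST1, 0 overlapped a GATA1 peak, which allows a share of up to 13%. The share was 1.76% of the codanin-1 peaks of chromosome 6 and 6.60% of the whole list. In the flanks 0 of 47 codanin-1 peaks overlapped, and over the 3 clusters 0 of 30 did. Neither GATA1 peak of HIST1 (0 of 2) met a codanin-1 peak, and 2 peaks are too few to compare. Of the GATA1 peaks of chromosome 6, 10.5% did, and of the GATA1 list 20.2% did. The closest approach was in the run from 26848110 to 26855632, where the second GATA1 peak began 566 bp after a codanin-1 peak ended. That codanin-1 peak was the only 1 of 23 (4.35%) within 1 kb of GATA1. The share was 3.53% on chromosome 6 and 10.5% in the whole codanin-1 list. The other GATA1 peak lay 20.7 kb from the nearest codanin-1 peak. The 9 codanin-1 peaks of the histone gene blocks lay 177.3 to 282.8 kb from the nearest GATA1 peak. The 14 other codanin-1 peaks of HIST1 lay 0.566 to 504.4 kb from it. The median of this gap was 133 kb for codanin-1 peaks of chromosome 6 and 94.5 kb for the whole list.

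HIST2 is the cluster on chromosome 1 that holds genes of H2A, H2B, H3 and H4. It held 4 codanin-1 peaks in 250 kb (1.60 per 100 kb), and its flanks held 52 (1.30 per 100 kb), a ratio of 1.23 (95% exact interval 0.32 to 3.34). The lower flank was denser than HIST2, with 42 peaks (2.10 per 100 kb), and the upper flank sparser, with 10 (0.50 per 100 kb). The sign of the difference therefore depends on the side taken (0.76 against the lower and 3.20 against the upper flank). Of 12091 other windows of 250 kb, 9.38% held at least 4 codanin-1 peaks. Measured against flanks, 32.8% of the 7414 windows with at least 5 flank peaks had a ratio at least as high as HIST2. The peaks of HIST2 were at 149803809 to 149804389 (581 bp, 3.50-fold), 149838525 to 149839104 (580 bp, 3.79-fold), 149887871 to 149888008 (138 bp, 3.78-fold) and 149908599 to 149908764 (166 bp, 4.28-fold). The first and second were the widest peaks of any of the 3 clusters, and the fourth had the highest fold of HIST2. No GATA1 peak was called in HIST2, and 0 peaks there allow up to 1.20 per 100 kb against 0.20 in the flanks, so a deficit was not detectable. The nearest GATA1 peak lay 129.9 kb from the first codanin-1 peak.

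HIST3, a small cluster on the long arm of chromosome 1, holds H3-4, an H3 gene of the testis, and the pair H2AC25 and H2BC26. It held 3 codanin-1 peaks in 80 kb (3.75 per 100 kb, 95% exact Poisson interval 0.773 to 11), and its flanks held 104 (2.60 per 100 kb), a ratio of 1.44 (95% exact interval 0.29 to 4.33). Of 37862 other windows of 80 kb, 3.36% held at least 3 codanin-1 peaks. The peaks were at 228639724 to 228639958 (3.82-fold), 228667286 to 228667455 (3.83-fold) and 228678164 to 228678393 (4.57-fold). The last had the highest fold and the highest −log10 q, 2.48, of all 30 codanin-1 peaks in the clusters. Its midpoint lay 1.72 kb inside the edge of HIST3, and the next codanin-1 peak, 64.6 kb beyond the edge, had a fold of 3.39. Against both flanks summed, the codanin-1 ratio was above 1 in HIST3 and HIST2 and below 1 in HIST1, and each interval spans 1. Among other windows with at least 5 flank peaks, a ratio above 1 was found in 26.8% of 23159 windows of 80 kb, 37.3% of 7414 windows of 250 kb and 40.1% of 934 windows of 2 Mb.

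The stretch beside HIST3, chosen after its counts were seen, differed from the cluster in both lists. The bin from 228700001 to 228800000, which by recalled position holds tandem 5S ribosomal RNA genes, had 23 codanin-1 and 25 GATA1 peaks. Only 19 of 30299 bins of the genome had more codanin-1 peaks, and 20 had more GATA1 peaks. All 23 of its codanin-1 peaks overlapped a GATA1 peak, against 6.60% of the whole codanin-1 list. In HIST3 0 of 3 did, which are too few to compare with that share. The folds of the 23 peaks, 2.63 to 3.39, lay below those of the HIST3 peaks, 3.82 to 4.57. A −log10 q of 2 or more was reached by 1 of the 23 codanin-1 and 21 of the 25 GATA1 peaks. Read mapping in repeats and copy number were not accounted for, and no IgG peak list was analysed. Whether the overlap reflects binding of both proteins was not tested. Without this bin the HIST3 ratio was 1.81 for codanin-1, and the GATA1 flanks fell from 42 to 17 peaks. HIST3 held 0 GATA1 peaks, which allows up to 3.75 per 100 kb against 1.05 in the whole flanks, so a deficit of GATA1 was not detectable there.

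**Figure D4:**
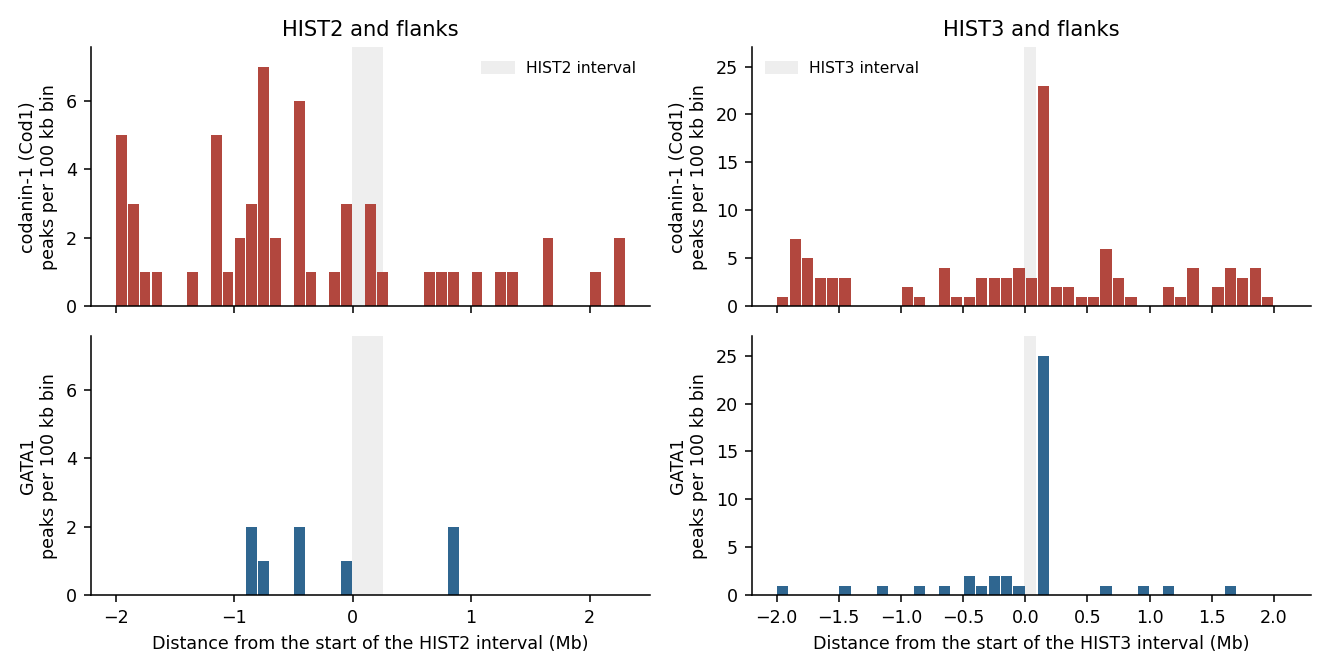
Number of peaks in each 100 kb bin (y axis) by distance from the start of HIST2 (left) and HIST3 (right) in Mb (x axis), codanin-1 above and GATA1 below, with the cluster in grey. The tall bin beside HIST3 holds 23 codanin-1 and 25 GATA1 peaks, and no GATA1 bar stands inside HIST2 or HIST3.

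**Figure D5:**
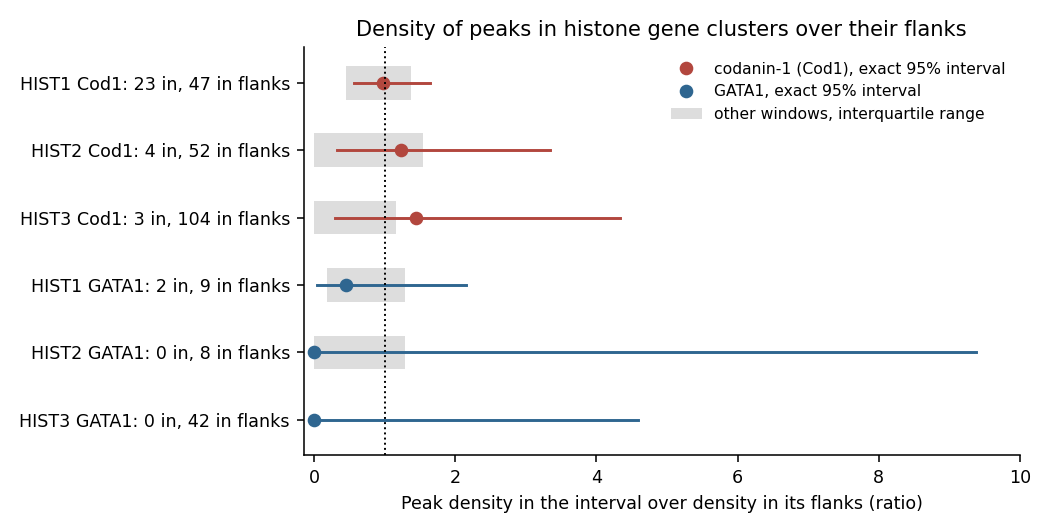
Ratio of peak density in each cluster to its flanks (x axis) with exact 95% intervals for both lists, beside the interquartile range of the same ratio in other windows of that length (grey). Every interval spans a ratio of 1, marked by the dotted line.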

How the data were processed

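ChIP-seq peak lists were analysed for 2 of 3 libraries. BWA, MACS2 and hg19 are named, without versions or roles, per the submitters' processing notes. For the background library, threshold and read filters, the sources used here give nothing. The authors' values for each peak are its position, its fold enrichment (a ratio over the background of the peak caller) and its p-value and q-value as −log10; they were compared only within a list. The score deposited by the authors repeats 10 times the −log10 q and was not used. Read depth is unknown.

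Peaks were assigned by midpoint, counted per 100 kb and set against 2 Mb on either side. Density ratios carry conditional exact (Clopper-Pearson) intervals and a count of 0 a limit of 3 counts. Windows of each cluster's length were tiled over the autosomes and X. Overlap means at least 1 bp. Named peaks are the 5 of highest fold and the 3 widest of HIST1 and all others of HIST2, HIST3 and GATA1. The members, blocks and tests were chosen with earlier results of these data known. The exact interval of the density ratio was tested on simulated data with independent peaks and flank counts like those of HIST1. Clustered peaks, and counts as small as those of HIST2 and HIST3, were not simulated. Python 3.11.15, numpy 2.4.6, pandas 2.3.3, scipy 1.17.1 and matplotlib 3.10.9 were used.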

Additional observations from a re-analysis of the deposited data

How the results depend on the processing

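Of 67 alternatives to 13 results, 60 stayed within the interval of the reported value and 7 did not. For a median this was an order-statistic interval over the HIST1 peaks, used here only as a yardstick. Many of the 60 could not have moved, so the tally does not measure robustness. The GATA1 ratios of HIST2, HIST3 and the histone gene blocks stay at 0 because no GATA1 peak lies there. A stricter overlap rule likewise leaves 0 overlaps at 0. Leaving out the bin beside HIST3, leaving out the fullest bin of HIST1 and taking its histone gene blocks alone were chosen after seeing the data. At a −log10 q of 2 or more, where HIST1 held 1 codanin-1 peak and its flanks 11, the codanin-1 ratio fell to 0.18 in HIST1, to 0 in HIST2 (0 peaks against 13) and to 0 for histone gene blocks over the rest of HIST1, the GATA1 ratio of HIST1 fell to 0, and the log2 fold difference of codanin-1 in HIST1 was -0.20. Against the lower flank alone the codanin-1 ratio of HIST1 was 2.30, and the GATA1 log2 fold difference, which rests on 2 peaks in HIST1 and was -0.05 against both flanks, was -0.14. Within their intervals, the codanin-1 ratio changed from below to above 1 in HIST1 with flanks of 1 Mb (1.44), by covered bases (1.17) and for the histone gene blocks alone (1.28), and from above to below 1 in HIST2 against the lower flank (0.76). In HIST3 it was 2.22 with flanks of 5 Mb. At a −log10 q of 2 or more it was 2.94 there, a value that rests on 1 peak in HIST3 against 17 in its flanks. The GATA1 overlap at that threshold, and the GATA1 ratio of HIST2, fold difference and block ratio there, could not be computed for lack of peaks. No paired analysis was possible because there is 1 library for each antibody, and none could be left out. How many sites lay under the caller's threshold cannot be given without depth.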
